A study of Homo sapiens with 4 samples.

Results

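The genes described here are 9 genes of matrix metalloproteinases, their tissue inhibitors and plasminogen activation: MMP1, MMP9, MMP10, MMP13, MMP14, TIMP1, TIMP2, PLAU and PLAUR. They were chosen by name, as rows on an assembled chromosome, and make up 9 of the 62077 rows of the expression table. The choice was made with earlier results of these data known. Shares of all genes set beside counts of these genes below are therefore a description and no test of the list. One further MMP13 row, on a patch contig, was listed at 0 in the 4 libraries and was left out. The cells were FADU, an established line from a human squamous cell carcinoma of the hypopharynx. RNA-Seq was run on 4 libraries, 1 for each of the 4 conditions. N-scr was the scrambled control in normoxia and H-scr the scrambled control in hypoxia. N-si and H-si were the cells with the TET1 short hairpin (TET1-si), called knockdown cells here as against control cells, in normoxia and in hypoxia. Hypoxia lasted 19 h in an atmosphere of 1% O2 with 5% CO2 and the rest N2, and the other libraries are labelled normoxia. Knockdown and scrambled control were both delivered by lentiviral short hairpin RNA vectors, so the control cells carried a vector as well. The study calls the infected cells clones, and 1 culture of each stands for its group.

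Matrix metalloproteinases (MMPs) are zinc-dependent proteases that cut collagens, laminins and other matrix proteins, and are made as inactive proenzymes. Tissue inhibitors of metalloproteinases (TIMPs) bind the active site and block it. Urokinase, encoded by PLAU, converts plasminogen into plasmin at the cell surface while bound to its receptor PLAUR, and plasmin both degrades fibrin and can activate several pro-MMPs. The system is known for its part in the invasion of squamous carcinomas. The study asked how TET1, an enzyme that oxidizes 5-methylcytosine in DNA, bears on the response of these cells to hypoxia, and it measured migration and invasion among other readouts.

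Levels are given as FPKM, in which fragments are scaled by transcript length and by the depth of the library, so that genes can be set beside each other. A change is a difference of log2(FPKM + 0.1) between 2 libraries and is called when it reaches 1, which is 2-fold, in a gene with a mean FPKM of at least 1. Each group had 1 library, so the changes have no error between cultures, no test and no p-value. The 95% counting intervals of a log2 ratio rest on approximate reads, cover counting error only, and say nothing of the spread between cultures. In such RNA, fewer cells that make a transcript and less of it per cell cannot be told apart.

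TET1 itself was lower in the TET1-si libraries, at 0.129 FPKM in N-scr against 0.0493 in N-si and at 0.331 in H-scr against 0.122 in H-si. With 11 to 77 approximate reads per library, the counting intervals of these log2 ratios, -2.60 to -0.39 and -2.14 to -0.78, were below 0. The recovered depth was 22500000 to 24600000 reads per library. All 12 squamous epithelial markers examined were at 1 FPKM or more in both scrambled libraries, with 10 at that level in N-si and 11 in H-si. Their summed level was 5158.4 FPKM in N-scr against 8058.2 in H-scr, and 2106.5 in N-si against 4270.3 in H-si. KRT14 and KRT6A were the markers under 1 FPKM in N-si, at 0.487 and 0.394, and KRT6A was at 0.357 in H-si. Of the 8 fibroblast markers, COL1A1 alone reached 1 FPKM in any library, and LUM, PDGFRA and COL1A2 were listed at 0 in the 4 libraries. The summed fibroblast level was 5.66, 29.1, 14.2 and 37.3 FPKM in N-scr, H-scr, N-si and H-si, nearly all of it COL1A1. Leukocyte markers CD3E and MS4A1 were listed at 0 throughout and PTPRC did not exceed 0.0101 FPKM. In contrast, CD68 was between 19.8 and 26.8 FPKM, and CD14 was at 1.44, 1.76, 3.43 and 3.46 FPKM in N-scr, H-scr, N-si and H-si. The 6 leukocyte markers summed to 22.8, 21.7, 29.8 and 30.3 FPKM in the same order of libraries. The endothelial markers CDH5 and VWF summed to 8.91, 17.8, 22.2 and 48.4 FPKM, and PECAM1, also on that list, was not found by name. The part of cell state or of clone in the results that follow was not tested.

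Promoter sequence is shown for MMP10, which differed most of the 9 genes between the TET1-si and scrambled hypoxic libraries. It is also shown for MMP7, a gene of the same chromosome 11 cluster that is not adjacent to MMP10. MMP14, the last shown, was higher in each hypoxic library than in its normoxic counterpart. RefSeq start windows (GRCh38.p14) matched 5 of the 9 genes, MMP10, MMP14, TIMP1, PLAU and PLAUR. MMP1, MMP9, MMP13 and TIMP2 had no entry. The lines give the 100 bases before the start, 5′ to 3′ on the gene's strand, with matches to the motifs searched in capitals.
MMP10 (chr11:102780629-102780728, minus strand): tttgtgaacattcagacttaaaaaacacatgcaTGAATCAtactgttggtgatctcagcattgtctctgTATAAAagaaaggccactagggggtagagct
MMP7 (chr11:102530748-102530847, minus strand): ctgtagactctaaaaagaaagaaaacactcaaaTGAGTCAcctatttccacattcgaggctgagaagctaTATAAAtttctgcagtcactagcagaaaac
MMP14 (chr14:22836485-22836584, plus strand): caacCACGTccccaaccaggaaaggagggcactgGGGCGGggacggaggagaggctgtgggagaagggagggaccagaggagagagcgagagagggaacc

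Motifs were searched on both strands of the whole windows, which run from 250 bases before to 50 after the start, and did not overlap one another in these genes. They were TGANTCA, a loose form of the AP-1 site in which any middle base counts, and ACGTG and GCGTG (cores of the hypoxia response element). TATAAA (the TATA box) and GGGCGG (the GC box) were searched as well. The middle base of TGANTCA was A in MMP10 and G in MMP7. In MMP10, TGANTCA began at -67, TATAAA at -31 and ACGTG at -233. MMP7 held TGANTCA at -67 and TATAAA at -30. MMP14 held GGGCGG at -66 and ACGTG at -96 on the opposite strand, and neither TGANTCA nor TATAAA. PLAUR held TGANTCA at -186, GCGTG at -86 on the opposite strand and ACGTG at 11. TIMP1 held ACGTG at -231, GCGTG at -36 and GGGCGG at -135 and -45 on the opposite strand. PLAU had 2 start windows, of which the first held none of the 5 motifs. The second held GCGTG at -113 on the opposite strand, and 3 GGGCGG. Among 35116 windows of all genes, 7.71% held TGANTCA, 21.4% ACGTG, 36.5% GCGTG, 11.5% TATAAA and 45.0% GGGCGG. A match describes these letters and is not evidence of binding.

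The first comparison asked how the 9 genes stood in hypoxia against normoxia in control cells. MMP9 did not pass the minimum mean FPKM, and the other 8 did. MMP1, MMP10, MMP14 and TIMP2 stood at least 2-fold higher in H-scr than in N-scr, 4 of 8 against 12.9% of the 15057 genes tested, and none of the 8 was at least 2-fold lower, against 4.53%. MMP13 stood at the threshold, with a change of 0.99, and upper-quartile scaling (1.04) and TPM (1.11) put it past, giving 5 of 8. The median change of the 8 was 1.03, beside 0.05 for all genes tested. In knockdown cells, none of the 8 was at least 2-fold higher in hypoxia, against 12.5% of genes, and MMP10 and MMP13 were at least 2-fold lower, against 8.66%. The median there was -0.17, beside 0.03 for all genes tested. MMP14 and TIMP2 stood just under the threshold, at 0.99 and 0.96. Upper-quartile scaling and TPM put both of them past it and took MMP10 out of the lower genes, giving 2 genes higher and 1 lower, so that this count depended on the scaling.

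**Figure D1:**
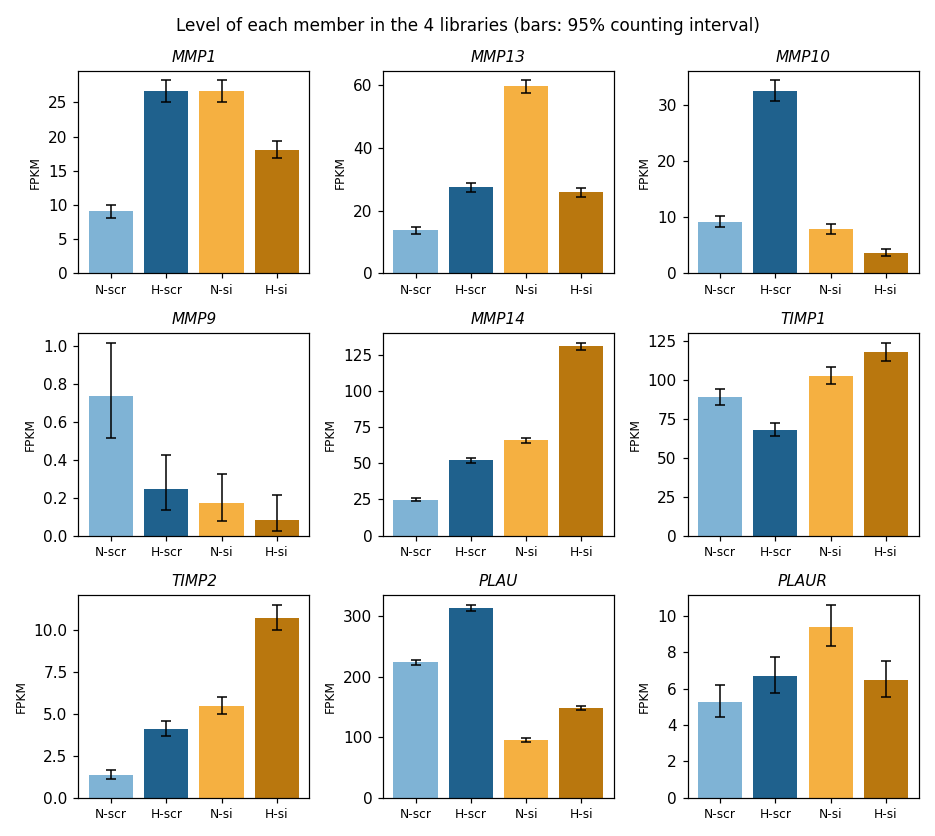
FPKM of each of the 9 genes (y axis, linear from 0, one scale per gene) in N-scr, H-scr, N-si and H-si, 1 library per bar, with 95% Poisson counting intervals from approximate reads. MMP10 was highest in H-scr at 32.4 FPKM and lowest in H-si at 3.68, whereas MMP14 was lowest in N-scr at 24.9 and highest in H-si at 130.7.

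The interstitial collagenases, MMP1 and MMP13, cleave fibrillar collagen within its triple helix. MMP1 (ENSG00000196611, hg19 chromosome 11, 102660651 to 102668891, minus strand) was at 9.07 FPKM in N-scr against 26.7 in H-scr, and at 26.6 in N-si against 18.1 in H-si. N-scr was the low library, and H-scr and N-si were level. MMP1 was therefore 2.94-fold higher in hypoxia in control cells, with a change of 1.55 and a counting interval of the log2 ratio from 1.39 to 1.73. In knockdown cells it was lower in hypoxia, with a change of -0.56 and an interval from -0.70 to -0.42. The TET1-si response was 1.54 under normoxia (interval 1.38 to 1.73) and -0.56 under hypoxia (-0.70 to -0.43), so that the sign of each response turned with the other factor. The approximate reads of MMP1 numbered 366, 1152, 1150 and 714 in N-scr, H-scr, N-si and H-si.

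MMP13 (ENSG00000137745, chromosome 11, 102813724 to 102826463, minus strand) was at 13.7 FPKM in N-scr against 27.4 in H-scr, and at 59.6 in N-si against 25.8 in H-si. The normoxic TET1-si library was the high one, and the hypoxic libraries were close to each other. Hypoxia was accompanied by a change of 0.99 in control cells (0.88 to 1.13) and of -1.20 in knockdown cells (-1.29 to -1.12). After TET1-si, MMP13 was 4.35-fold higher under normoxia, a change of 2.11 with an interval from 2.01 to 2.23. Under hypoxia the change was -0.08, and its interval, -0.19 to 0.02, included 0.

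MMP10, a stromelysin, cuts proteoglycans, laminin and other noncollagenous matrix proteins and can activate procollagenases. MMP10 (ENSG00000166670, chromosome 11, 102641234 to 102651359, minus strand) was at 9.16 FPKM in N-scr against 32.4 in H-scr, and at 7.82 in N-si against 3.68 in H-si. The hypoxic scrambled library stood above the other three. In hypoxia MMP10 was 3.54-fold higher in control cells, with a change of 1.81 (1.65 to 2.01), and lower in knockdown cells, with a change of -1.07 (-1.40 to -0.78). Its TET1-si response was -3.10 under hypoxia (-3.41 to -2.87), which placed it 182nd from the lowest of 15057 genes, and -0.22 under normoxia, where the interval ended at 0, from -0.46 to 0.00. The level in H-scr was 8.80 times that in H-si. The reads behind these levels were approximately 325, 1232, 297 and 128 in N-scr, H-scr, N-si and H-si.

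MMP9, gelatinase B, degrades type IV collagen and denatured collagens. MMP9 (ENSG00000100985, chromosome 20, 44637547 to 44645200, plus strand) was at 0.738 FPKM in N-scr against 0.249 in H-scr, and at 0.173 in N-si against 0.0836 in H-si, on approximately 36, 13, 9 and 4 reads. N-scr was its highest library. The log2 ratio of H-scr to N-scr was -1.57 with an interval from -2.61 to -0.62, and that of N-si to N-scr was -2.10, from -3.34 to -1.02. In the other 2 contrasts a difference was not detectable at this depth, with intervals of -3.19 to 0.80 for the hypoxia response in knockdown cells and -3.65 to 0.12 for H-si against H-scr. Of its 100-base transcript windows, 4.69% also occurred in the antisense gene SLC12A5-AS1, so that its few reads could in part belong there.

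MMP14 is a membrane-anchored MMP that cuts collagen at the cell surface and activates proMMP2 in a complex with TIMP2. MMP14 (ENSG00000157227, chromosome 14, 23305766 to 23318236, plus strand) was at 24.9 FPKM in N-scr against 51.9 in H-scr, and at 65.8 in N-si against 130.7 in H-si. Both hypoxic libraries were above their normoxic counterparts, and both TET1-si libraries above the scrambled ones. The hypoxia response was 1.06 in control cells (0.98 to 1.14) and 0.99 in knockdown cells (0.94 to 1.04), with intervals that overlapped. Its TET1-si response was 1.40 under normoxia (1.33 to 1.48) and 1.33 under hypoxia (1.28 to 1.38). H-si therefore held 130.7 FPKM on approximately 10256 reads, against 1996 reads in N-scr.

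**Figure D2:**
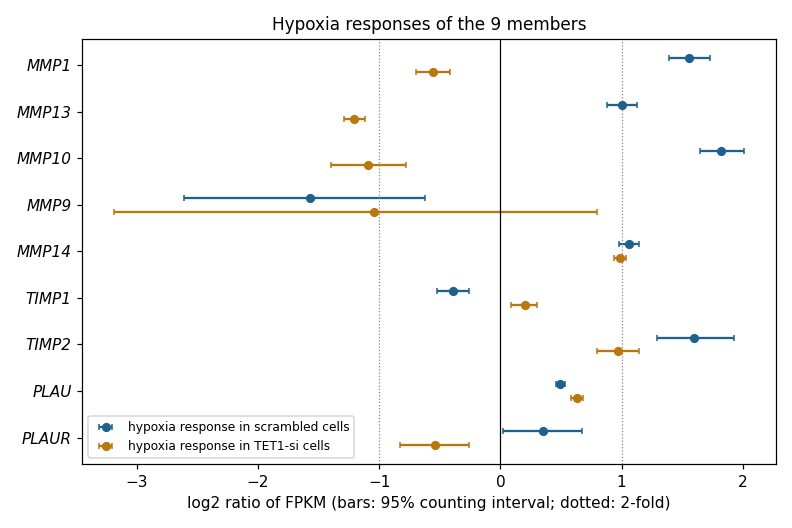
Hypoxia responses of the 9 genes as log2 ratios of FPKM without a pseudocount (x axis), H-scr against N-scr in control cells and H-si against N-si in knockdown cells, with 95% counting intervals and dotted lines at 2-fold. For MMP1, MMP13 and MMP10 the points of control cells lay at 1.56, 1.00 and 1.82 and those of knockdown cells at -0.56, -1.21 and -1.09, whereas for MMP14 they lay at 1.06 and 0.99.

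The inhibitors differed from each other in level and in response. TIMP1 inhibits most secreted MMPs and is a poor inhibitor of MMP14. TIMP1 (ENSG00000102265, chromosome X, 47441712 to 47446188, plus strand) was at 89.0 FPKM in N-scr against 68.0 in H-scr, and at 102.7 in N-si against 117.7 in H-si. H-scr was the low library. The hypoxia response was -0.39 in control cells (-0.52 to -0.26) and 0.20 in knockdown cells (0.09 to 0.30). The TET1-si response was 0.79 under hypoxia (0.67 to 0.91) and 0.21 under normoxia, which median-of-ratios scaling brought to 0.04. None of these changes reached 2-fold.

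TIMP2 inhibits MMPs broadly, MMP14 included, and at low amounts serves as the bridge by which MMP14 activates proMMP2. TIMP2 (ENSG00000035862, chromosome 17, 76849059 to 76921469, minus strand) was at 1.35 FPKM in N-scr against 4.11 in H-scr, and at 5.48 in N-si against 10.7 in H-si, the same order of libraries as MMP14. Its hypoxia response was 1.53 in control cells and 0.96 in knockdown cells, with intervals of the log2 ratio from 1.29 to 1.93 and from 0.80 to 1.14. Its TET1-si response was 1.94 under normoxia and 1.36 under hypoxia. An antisense gene that overlaps its exons, ENSG00000267601, was at 1.99, 5.83, 9.29 and 18.8 FPKM in N-scr, H-scr, N-si and H-si, and 7.54% of the 100-base windows of the TIMP2 transcript occurred in it. The libraries are not stated to keep strand, so reads of TIMP2 and of this gene cannot be told apart where they overlap.

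MMP14 was at 18.4 times the level of TIMP2 in N-scr, and at 12.6, 12.0 and 12.2 times in H-scr, N-si and H-si. MMP14 was below TIMP1 in N-scr, at 0.279 of its level, in H-scr at 0.763 and in N-si at 0.641, and above it in H-si, at 1.11. The summed level of the MMP members, MMP1, MMP9, MMP10, MMP13 and MMP14, was 57.5 FPKM in N-scr against 138.6 in H-scr, and 160.0 in N-si against 178.4 in H-si. MMP1, MMP10 and MMP13 together made up 31.9, 86.5, 94.0 and 47.6 FPKM of these sums, so that the highest sum, in H-si, was mostly MMP14. TIMP1 and TIMP2 together were at 90.4, 72.1, 108.1 and 128.4 FPKM. The MMP sum was thus below the TIMP sum in N-scr and above it in the other libraries. These are RNA levels, and no protein or enzyme activity was measured here.

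Urokinase had the highest level of the 9 genes in 3 of the 4 libraries. PLAU (ENSG00000122861, chromosome 10, 75668935 to 75677255, plus strand) was at 223.5 FPKM in N-scr against 313.9 in H-scr, and at 95.3 in N-si against 147.7 in H-si. Both TET1-si libraries were below both scrambled ones, and each hypoxic library was above its normoxic counterpart. The hypoxia response was 0.49 in control cells (0.46 to 0.53) and 0.63 in knockdown cells (0.58 to 0.68). Its TET1-si response was -1.09 under hypoxia (-1.13 to -1.05) and -1.23 under normoxia (-1.28 to -1.18). PLAU was supported by 4993 to 16442 approximate reads per library. The antisense gene C10orf55, which overlaps it, was at 5.49, 7.78, 3.24 and 4.07 FPKM in N-scr, H-scr, N-si and H-si, and 1.16% of the PLAU windows occurred in that gene.

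PLAUR (ENSG00000011422, chromosome 19, 44150247 to 44174699, minus strand), the receptor that holds urokinase at the cell surface, was at 5.27 FPKM in N-scr against 6.70 in H-scr, and at 9.39 in N-si against 6.47 in H-si. N-si was the highest library. The hypoxia response was 0.34 in control cells (0.02 to 0.67) and -0.53 in knockdown cells (-0.83 to -0.26). The TET1-si response was 0.82 under normoxia (0.53 to 1.14) and -0.05 under hypoxia, with an interval from -0.36 to 0.26 that included 0 and a sign that TPM turned to 0.02. No PLAUR change reached 2-fold. PLAU stood at 42.4 times the level of PLAUR in N-scr and 46.9 times in H-scr, and at 10.2 and 22.8 times in N-si and H-si.

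**Figure D3:**
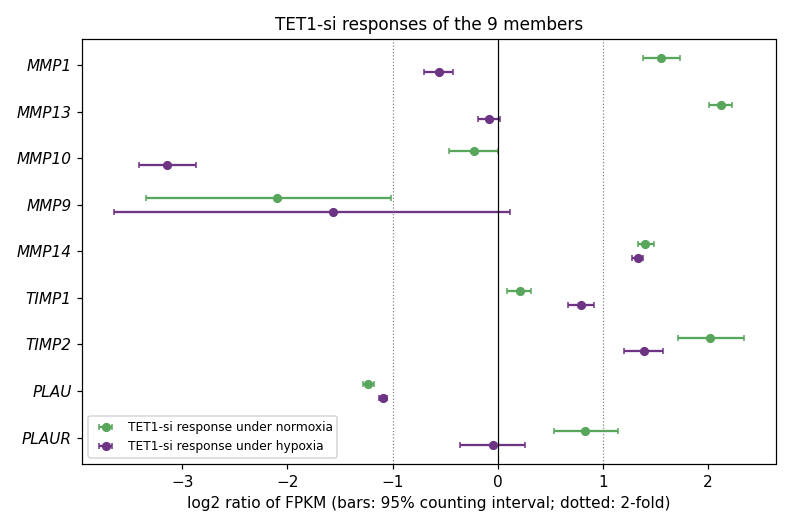
TET1-si responses of the 9 genes as log2 ratios of FPKM without a pseudocount (x axis), N-si against N-scr under normoxia and H-si against H-scr under hypoxia, with 95% counting intervals and dotted lines at 2-fold. PLAU lay at -1.23 and -1.09 and MMP14 at 1.40 and 1.33, whereas MMP10 lay at -0.23 under normoxia and at -3.14 under hypoxia.

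The second comparison asked how the genes stood after TET1-si. Under hypoxia, MMP14 and TIMP2 were at least 2-fold higher, 2 of 8 against 12.0% of genes tested, and MMP10 and PLAU at least 2-fold lower, against 8.35%. Under normoxia, MMP1, MMP13, MMP14 and TIMP2 were at least 2-fold higher, 4 of 8 against 12.1%, and PLAU was at least 2-fold lower, against 5.56%. The median change of the 8 was -0.07 under hypoxia and 1.11 under normoxia, beside 0.10 and 0.15 for all genes tested. Median-of-ratios scaling brought the medians of all genes to -0.01 and 0.00, and TPM raised those of the hypoxia responses from 0.05 to 0.16 in control cells and from 0.03 to 0.16 in knockdown cells. With the median of all genes subtracted, the TET1-si responses under hypoxia were -3.20 for MMP10, -1.19 for PLAU, 1.23 for MMP14 and 1.26 for TIMP2. Under normoxia they were 1.39 for MMP1, 1.96 for MMP13, 1.25 for MMP14, 1.79 for TIMP2 and -1.38 for PLAU. The 2 TET1-si responses share no library with each other, but each shares a library with each hypoxia response.

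The third comparison set the hypoxia response in knockdown cells against that in control cells. The difference was -2.88 for MMP10, -2.20 for MMP13 and -2.10 for MMP1, and these 3 of the 8 were at -1 or lower, against 7.86% of genes tested. None was at 1 or higher, against 4.87%. Their places among 15057 genes were 204, 277 and 293 from the lowest. PLAUR followed at -0.87 and TIMP2 at -0.58, while MMP14 was at -0.07, PLAU at 0.14 and TIMP1 at 0.58. Counting intervals of the hypoxia responses in the scrambled and TET1-si states did not overlap for MMP1, MMP10, MMP13, TIMP1, TIMP2, PLAU and PLAUR. They overlapped for MMP14 and MMP9. The share of all genes without such overlap was not computed, so this list says nothing of these genes in particular. The intervals cover counting error only and are narrow at many reads, and PLAU had no overlap at a difference of 0.14. The study's 3 expression criteria ask that H-scr exceed 2 times H-si, that H-scr exceed N-scr, and that N-scr be at or above N-si. They were met by MMP10 and PLAU, 2 of the 9, by 4.33% of all rows, among which rows at 0 in H-scr cannot meet them, and by 3.84% of the 15057 genes tested. MMP1 and MMP13 did not meet them, as N-si was above N-scr and H-scr less than 2 times H-si.

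**Figure D4:**
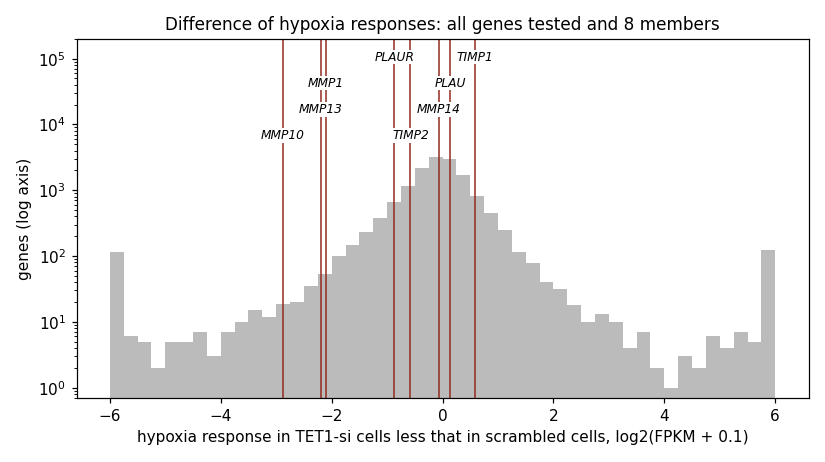
Histogram of the hypoxia response in knockdown cells less that in control cells (x axis, log2(FPKM + 0.1), bins of 0.25, values beyond 6 placed in the end bins) for 15057 genes, with the number of genes on a log axis and red lines at the 8 members tested. MMP10, MMP13 and MMP1 lay between -2.88 and -2.10, and the other 5 between -0.87 and 0.58.

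The order of the members by level was read in each library with Poisson counting intervals. In N-scr it ran PLAU, TIMP1, MMP14, MMP13, MMP10, MMP1, PLAUR, TIMP2 and MMP9, and the intervals of MMP10 and MMP1 overlapped. In H-scr, MMP10 stood above MMP13 and MMP1, and the intervals of the latter pair, 26.1 to 28.7 and 25.1 to 28.2 FPKM, overlapped. In N-si the intervals of TIMP1, 97.4 to 108.2 FPKM, and PLAU, 92.7 to 98.0, overlapped at the top of the order, as did those of PLAUR and MMP10 lower down. In H-si, PLAU, MMP14, TIMP1, MMP13, MMP1, TIMP2, PLAUR, MMP10 and MMP9 followed each other with no overlap between neighbours. MMP10 thus stood next below MMP14 in H-scr and above MMP9 alone in H-si.

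MMP1, MMP10 and MMP13 lie in a cluster of 9 MMP genes that spans 435 kb of chromosome 11, from 102391239 to 102826463 in hg19. The cluster genes arose by duplication and encode collagenases, stromelysins, matrilysin and macrophage elastase, among others. Besides the 3 members, MMP7 and MMP12 passed the minimum. MMP7, matrilysin, was at 0.860 FPKM in N-scr against 2.27 in H-scr, and at 1.74 in N-si against 1.63 in H-si, on 18 to 51 approximate reads. MMP12, macrophage elastase, was at 1.13, 5.17, 2.60 and 6.93 FPKM in the same order, higher in hypoxia by 2.10 in control cells and by 1.38 in knockdown cells. MMP3, the stromelysin next to MMP1, did not pass, at 0.807, 1.48, 0.234 and 0.0492 FPKM on approximately 30, 59, 9 and 2 reads. MMP8 did not exceed 0.0401 FPKM, and MMP20 and MMP27 were listed at 0.

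The difference of hypoxia responses was below 0 in the 5 cluster genes tested, from -2.88 to -0.72, against 55.4% of all genes tested. It was at -1 or lower in 4 of them, against the 7.86% given above, and 3 of these 4 are MMP1, MMP10 and MMP13, already counted. Of the other two, MMP7 was at -1.40 on few reads and MMP12 at -0.72. Within 500 kb of the cluster ends, 6 of 7 protein-coding genes passed the minimum, and the difference ran from -1.39 to 0.66, with 1 gene at -1 or lower. That gene was BIRC3, an inhibitor of apoptosis, named after its value was seen, which was at 6.20 FPKM in N-scr against 12.1 in H-scr, and at 9.52 in N-si against 6.96 in H-si. BIRC2, its neighbour, was at 23.7, 27.0, 39.5 and 42.6 FPKM, and its difference was -0.08. At the other end DCUN1D5 had a difference of -0.25 and DYNC2H1 of 0.66. Genes that lie side by side are not independent, and no test was made of the cluster.

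**Figure D5:**
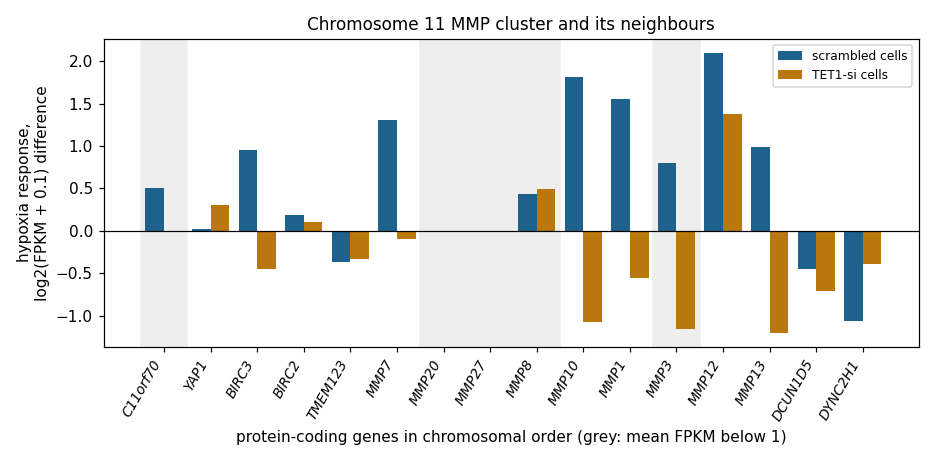
Hypoxia responses, as differences of log2(FPKM + 0.1), of the 16 protein-coding genes of the chromosome 11 MMP cluster and its flanks in chromosomal order (x axis), in control cells and in knockdown cells, with genes of a mean FPKM below 1 shaded grey. MMP10, MMP1 and MMP13 have bars above 0 in control cells and below 0 in knockdown cells, and MMP12 has bars of 2.10 and 1.38.

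Of 50 related genes found on chromosomes, 26 passed the minimum. In control cells 10 of the 26 were at least 2-fold higher in hypoxia and 1 lower, and in knockdown cells 7 were higher and 2 lower. After TET1-si, 3 were higher and 3 lower under hypoxia, and 6 higher and 2 lower under normoxia. The background shares are those given above for each contrast, and the median changes in this order were 0.53, 0.32, 0.17 and 0.18. The difference of hypoxia responses was at 1 or higher in 2 and at -1 or lower in 3, with a median of -0.20. Among the 18 other MMP genes, 8 were tested. Of these, 6 were up by 2-fold or more in H-scr over N-scr and 5 in H-si over N-si, and none was at least 2-fold lower in either.

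MMP17, a membrane-anchored MMP, was at 2.09 FPKM in N-scr against 8.51 in H-scr, and at 6.24 in N-si against 16.0 in H-si, lowest and highest in the same libraries as MMP14. MMP2, the gelatinase that MMP14 activates, was at 0.597, 1.25, 3.12 and 4.21 FPKM, so that it was 5.23-fold higher after TET1-si under normoxia and 3.37-fold higher under hypoxia. TIMP3, an inhibitor held in the matrix, was at 1.20, 2.82, 0.751 and 4.53 FPKM. Its hypoxia response was 1.17 in control cells and 2.44 in knockdown cells, the reverse order to that of TIMP2. Of the 6 ADAM and ADAMTS genes tested, relatives of the MMPs that shed surface proteins or cut matrix, none was at least 2-fold higher in hypoxia in either knockdown state, 1 was lower in control cells and 1 was higher after TET1-si under hypoxia.

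PLAT, the tissue-type plasminogen activator, was at 19.5 FPKM in N-scr against 101.4 in H-scr, and at 18.3 in N-si against 28.1 in H-si. H-scr stood apart, 5.19-fold above N-scr, and the TET1-si response was -1.85 under hypoxia (-1.93 to -1.78). PLAU was at 11.4 times the level of PLAT in N-scr, 3.10 times that in H-scr, and 5.21 and 5.26 times in N-si and H-si. SERPINE2, an inhibitor of serine proteases that include urokinase, was at 22.0, 11.5, 6.61 and 2.98 FPKM, lower after TET1-si by 1.72 under normoxia and 1.91 under hypoxia on the log2 scale. LRP1, which clears protease and inhibitor complexes, was at 4.18, 10.9, 3.17 and 9.22 FPKM, above its normoxic level in both hypoxic libraries. PLGRKT, a plasminogen receptor, was at 38.5, 28.5, 123.0 and 55.5 FPKM, with N-si the highest. Of the 4 plasminogen system genes tested, 3 stood at least 2-fold higher in H-scr than in N-scr and 1 in H-si than in N-si, and 2 were lower after TET1-si under hypoxia. Among the 6 genes listed under plasminogen binding and cofactors, BSG and FURIN included, PLGRKT was the 1 called. It was lower in hypoxia in knockdown cells and higher after TET1-si under normoxia. S100A10, another of the 6, stood just under the threshold after TET1-si under normoxia. It was at 525.0 FPKM in N-scr against 1047.0 in N-si, 1.99-fold. PLG, the gene of plasminogen, did not pass the minimum, with at most 0.0761 FPKM.

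The genes nearest in pattern were found among 9457 genes that code for protein and averaged 5 FPKM or more, by the Euclidean distance between mean-centred log2 values over the 4 libraries. With 4 values such likeness is loose, and nothing is said of shared control. PEA15 was nearest to PLAUR at a distance of 0.051, TNKS to TIMP1 at 0.068, ELK3 to PLAU at 0.085, KDM4C to TIMP2 at 0.105 and RHBDL2 to MMP14 at 0.107. The 3 cluster genes had more distant neighbours: OAS3 to MMP10 at 0.285, PIK3R3 to MMP1 at 0.358 and ZNF611 to MMP13 at 0.465. The values were not scaled, so genes with large changes between libraries can lie farther from any other, and the distances partly restate those changes. OAS3, an interferon-induced gene, was at 32.0 FPKM in N-scr against 100.3 in H-scr, and at 31.1 in N-si against 14.6 in H-si. The next nearest to MMP10 was EBP, an enzyme of cholesterol synthesis, at 165.2, 480.2, 119.2 and 70.3 FPKM.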

How the data were processed

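RNA-Seq of 4 FADU libraries was used, 1 per group. The authors prepared TruSeq mRNA libraries, sequenced 100 bp reads on a HiSeq instrument, and aligned them to hg19 with TopHat/Cufflinks and Ensembl annotations. The labels give single-end reads and the methods paired-end reads. Versions and filters are not given in the sources used here. The deposited values are gene-level FPKM, 1 column per library. Starts count from 0 in the table, so 1 was added.

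Changes were differences of log2(FPKM + 0.1) over 15057 genes that averaged 1 FPKM or more and whose gene ID stood on 1 row. FPKM are not counts, so no count test was run. Depth was recovered from 5208 genes with 1 exon, as the depth and length offset at which low FPKM become whole reads. Between 96.5% and 97.7% of low values were whole within 0.05, at 23000000 reads (N-scr), 24600000 (H-scr and N-si each) and 22500000 (H-si), with an offset of 214 bp. Approximate reads are FPKM times depth times the canonical transcript length (GENCODE v44lift37) less that offset. They are approximate for genes with several isoforms. Intervals of log2 ratios are exact (Clopper-Pearson), those of levels Poisson, both at 95%, and cover counting error only. The depth search and the interval of log2 ratios were tried on simulated counts. The calls were tried only on made-up values without noise, which checks that the threshold was applied and no more.

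Members and gene lists were chosen with earlier results of these data known. Named genes were the 9 members, TET1, the listed related genes averaging 5 FPKM or more and a 2-fold change in any contrast (up to 6 per list), PLAT, MMP2, MMP3, MMP7 and TIMP3, the chromosome 11 cluster with its flanks of 500 kb, and the nearest genes in pattern. One further gene of that rule is not reported here. A planned comparison of proteins was not made. Alternatives were 2 other minimums (none, 5), 2 pseudocounts (0.01, 1) and 3 scalings (median-of-ratios, upper-quartile, TPM). Python 3.11.15, numpy, pandas and scipy 1.17.1 were used.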

Additional observations from a re-analysis of the deposited data

Results flagged for a closer look

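Opposite signs of a response in the 2 knockdown states or the 2 oxygen states drew attention to 5 of the 9 genes. Both counting intervals had to lie away from 0. The flag was applied to the 9 genes alone, so no share of all genes stands beside this count. Where reads are many, small changes such as the 0.20 of TIMP1 also clear 0. With 1 library per group these differences were not tested against the spread between cultures. The hypoxia response was 1.55 in control cells and -0.56 in knockdown cells for MMP1, 1.81 and -1.07 for MMP10, and 0.99 and -1.20 for MMP13. PLAUR gave 0.34 and -0.53, and TIMP1 gave -0.39 and 0.20. The interval of PLAUR in control cells began at 0.02, and median-of-ratios scaling lowered that change to 0.29, so this flag was marginal and could depend on the scaling. For MMP1 the TET1-si response was also of opposite sign, at -0.56 under hypoxia and 1.54 under normoxia.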

How the results depend on the processing

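Of 280 values of single members recomputed under an alternative, none that had been called changed sign, and 1 that had not been called did: the TET1-si response of PLAUR under hypoxia, 0.02 after TPM. In all, 251 differed from the main value by no more than its counting error, and 29 moved beyond it. That error was taken from the width of the counting interval, combined over both responses for a difference of hypoxia responses. The 2 other minimums change only which genes are tested and could not move a single value, so their values are all among the 251. The members called higher in hypoxia in control cells went from 4 to 5 with upper-quartile scaling and with TPM, which call MMP13. The members called lower in hypoxia in control cells went from 0 to 1, and those lower after TET1-si under normoxia from 1 to 2, without a filter, which adds MMP9. Of members lower in hypoxia in knockdown cells, 1 was left with a pseudocount of 1, with upper-quartile scaling and with TPM, and the latter pair of scalings put 2 members higher. For the related genes, a minimum of 5 left 4 changed in hypoxia in control cells, 4 in knockdown cells, 2 in H-si against H-scr and 4 in N-si against N-scr. With 1 as the pseudocount 7, 5, 3 and 4 were left, and no filter gave 16, 12 and 14 for the last 3 contrasts. Over all genes, no filter gave 4517 higher and 1654 lower for the hypoxia response of control cells, against 1937 and 682, and 4803 and 2333 for that of knockdown cells, against 1883 and 1304. After TET1-si it gave 4226 and 3083 under hypoxia, against 1807 and 1258, and 3699 and 2299 under normoxia, against 1828 and 837. For the difference of hypoxia responses it gave 3341 and 3506, against 734 and 1184. A minimum of 5 gave 905 and 466, 823 and 1013, 881 and 789, 892 and 435, and 269 and 633 in the same order, and a pseudocount of 1 gave 1237 and 487, 1289 and 1063, 1307 and 996, 1164 and 579, and 467 and 786. The share of higher among changed genes went from 59.0% to 49.2% after TET1-si under hypoxia and from 68.6% to 56.0% under normoxia with median-of-ratios scaling, and from 59.1% to 69.1% for the response of knockdown cells to hypoxia with TPM. No library could be left out. No paired analysis was possible because each group had 1 library. The causes were not tested.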
